A study of Mus musculus with 282 samples.

Results

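Clustered protocadherins were represented by 38 of the 51024 transcripts in the table of hypothalamic expression. The members are all transcripts whose gene name in the merged assembly begins with Pcdha, Pcdhb or Pcdhg. They were picked by this name, with earlier results of these data known, from a table that the authors had filtered by FPKM. They comprise 9 transcripts of the alpha cluster, 16 of the beta cluster and 13 of the gamma cluster. RNA was sequenced from the whole hypothalamus of 282 male mice fed a high fat diet, as 1 unstranded mRNA library per mouse. The mice belong to 99 strains of the Hybrid Mouse Diversity Panel (HMDP), of which 85 had 3 mice, 12 had 2 and 2 had 1. All mice had the same sex and diet, so strain is the one factor that was compared. The strains form 43 BXD (126 mice, bred from C57BL/6J and DBA/2J), 18 AXB/BXA (47 mice, from C57BL/6J and A/J), 7 CXB (21 mice, from C57BL/6 and BALB/c), 6 BXH (16 mice, from C57BL/6J and C3H/HeJ) and 25 classical inbred strains (71 mice). The labels of mouse OB-627 give it 2 different strains, and no strain comparison includes it.

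Clustered protocadherins are cell adhesion molecules of neurons, encoded by tandem arrays of large exons. In the alpha and gamma clusters every isoform starts at its own variable first exon, with its own promoter, and is spliced to constant exons that all isoforms of the cluster share, whereas each beta gene is a single exon with no constant part. Single neurons switch on a small, largely random choice of the alternate promoters together with the more widely used C-type promoters, and the resulting combination at the cell surface binds only a matching combination, by which a neuron tells its own branches from those of others. A whole hypothalamus averages these choices over very many cells, so fewer cells using a promoter and less RNA per cell cannot be told apart here.

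The 3 clusters lie in tandem on the plus strand of chromosome 18 (mm10). The alpha members span positions 36939318 to 37187713, the beta members 37294840 to 37521419 and the gamma members 37666025 to 37842082. Every alpha and gamma transcript has 4 exons and every beta transcript has 1. Of the RefSeq genes of each cluster, 8 of 14 alpha, 16 of 22 beta and 10 of 22 gamma genes had a transcript in the table, which holds transcripts detected in at least 100 mice and above 1 FPKM in at least 50. FPKM are fragments scaled to transcript length and library size, and can be compared between transcripts. Of the members, 32 are annotated transcripts and 6 are isoforms that the authors' assembly added, namely Pcdha9, 1 of 2 transcripts of Pcdhac2, Pcdhga2 and 3 gamma transcripts (TCONS_00159230, TCONS_00159231 and TCONS_00159232). These last 3 hold the gamma constant exons behind a first exon of 38, 16 and 15 nucleotides, and no variable exon of any isoform. Transcripts that share their constant exons, and the similar beta genes, can exchange reads when abundance is estimated, so their single values are less certain than the sums. Reads from antisense or overlapping genes cannot be told apart in unstranded libraries.

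Several libraries stood apart. In 18 libraries, 31.0% to 36.7% of 11540 widely detected unannotated isoforms outside the clusters were at 0, against 0.416% to 10.2% in all other libraries but OB-547, while 0.896% to 3.48% of 21316 annotated transcripts were at 0 in the 18. The 18 were all mice of BXD-9/TyJ, BXD62, BXD70, BXD75, BXD85 and BXHA1 and 1 mouse of BXD87. Separately, mouse OB-547 of BXD-12/TyJ had 26.3% of unannotated and 25.0% of annotated transcripts at 0, and OB-422 of CXB-3/ByJ had 10.2% and 9.91%. The markers of hypothalamus were all present, with each of 10 neuropeptide genes above 1 FPKM on average, and so were those of neurons (8 of 8), astrocytes (6 of 6), oligodendrocytes (6 of 6), microglia (6 of 6), endothelium (5 of 5) and thalamus (5 of 5). The values of the neuropeptide genes Agrp and Oxt and of the microglial gene Aif1 are those of merged loci with 2, 3 and 3 gene names. All 6 measured markers of anterior pituitary and all 5 of choroid plexus also had means above 1 FPKM. The sum of the pituitary markers ranged over mice from 0.589 to 16460 FPKM, and that of the choroid plexus markers from 7.25 to 2101 FPKM.

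The C-type isoforms at the distal end of the gamma cluster were the most abundant members with a variable exon (the plot of levels along the clusters). Pcdhgc3, an isoform known for its part in dendrite branching, had a mean of 26.4 ± 3.87 FPKM (SD, n = 282 mice). Pcdhgc4, known for its role in survival of neurons, had 13.8 ± 2.04 FPKM. Pcdhgc5, the most distal gamma isoform, had 7.39 ± 1.52 FPKM. This order held mouse by mouse, since Pcdhgc3 was not above Pcdhgc4 in 1 of 282 mice and Pcdhgc4 was not above Pcdhgc5 in 6.

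Taken as single transcripts, the alpha C-type members were lower. Pcdhac2, known for keeping the axons of serotonergic neurons apart, had 6.25 ± 1.65 FPKM in its annotated and 4.69 ± 1.24 FPKM in its unannotated transcript. Pcdhac1, the other alpha C-type isoform, had 1.01 ± 0.280 FPKM. The neighbours in this order were not cleanly separated: Pcdhgc5 did not exceed annotated Pcdhac2 in 74 of 282 mice, and annotated Pcdhac2 did not exceed the unannotated transcript in 69. The unannotated Pcdhac2 transcript was above Pcdhac1 in 282 of 282 mice. Both Pcdhac2 transcripts belong to the same isoform, whose level is split between them. Together the 3 alpha C-type transcripts had 11.95 ± 1.84 FPKM, above the mean of Pcdhgc5. This order thus ranks transcripts and not isoforms.

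**Figure D1:**
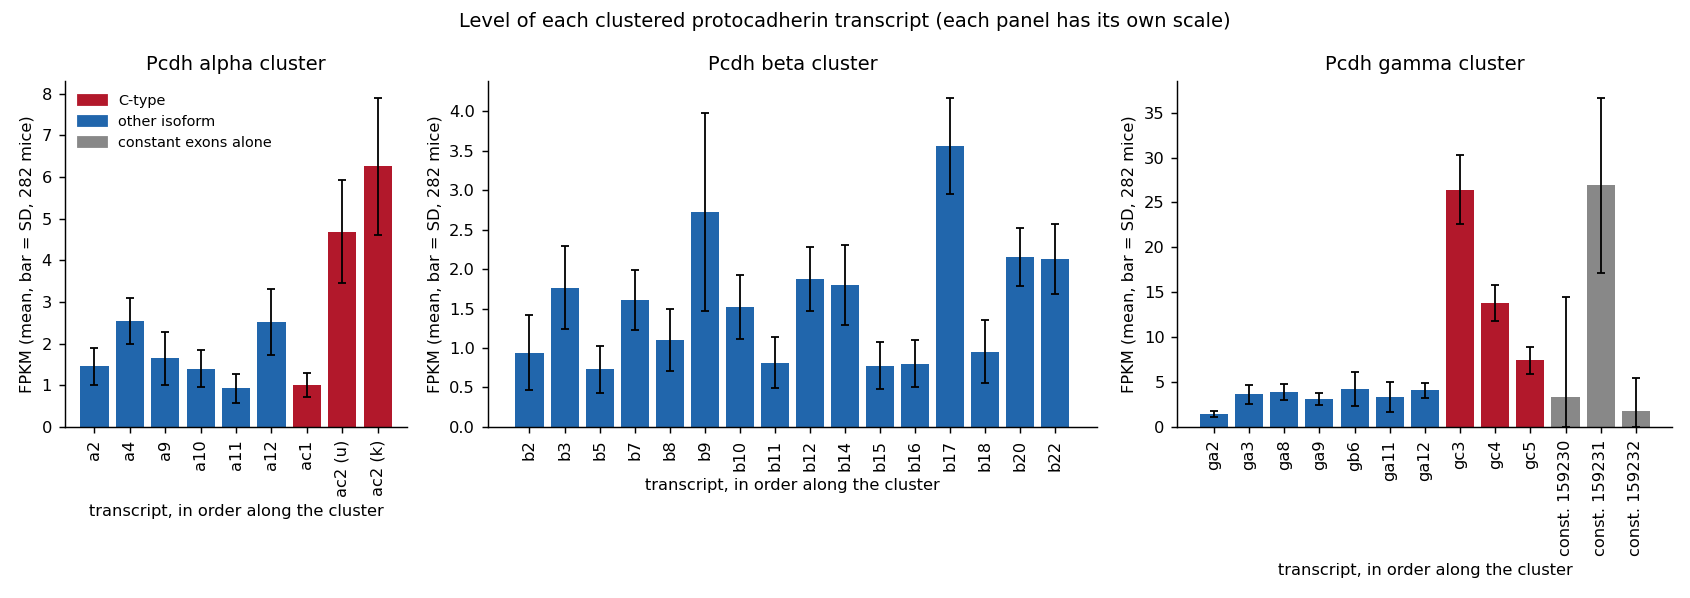
Mean FPKM of each member in the order of its first exon along the alpha, beta and gamma clusters, with error bars for the SD over 282 mice; each panel has its own linear scale. Pcdhgc3 (26.4 FPKM) and the constant-exon transcript TCONS_00159231 (26.9 FPKM) stand at the right, while the beta members lie between 0.731 and 3.57 FPKM.

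On average the alternate isoforms were below the gamma C-type isoforms and both Pcdhac2 transcripts. The C-type isoform Pcdhac1 (1.01 FPKM) was itself below every measured alternate alpha isoform but Pcdha11. Of the alternate alpha isoforms, Pcdha4 was highest at 2.54 ± 0.559 FPKM, next to Pcdha12 at 2.51 ± 0.787, and Pcdha11 was lowest at 0.923 ± 0.340. These encode adhesion molecules with the same cytoplasmic domain and differ in their ectodomain. Of the beta proteins, which have their own short cytoplasmic ends, Pcdhb17 was highest at 3.57 ± 0.610 FPKM, followed by Pcdhb9 at 2.73 ± 1.25 and Pcdhb20 at 2.15 ± 0.366, and Pcdhb15 (0.777 ± 0.303) and Pcdhb5 (0.731 ± 0.296) were lowest. In the gamma cluster the A-type and B-type isoforms ranged from 1.45 ± 0.374 FPKM (Pcdhga2) to 4.26 ± 1.90 FPKM (Pcdhgb6). The constant-exon transcripts TCONS_00159231, TCONS_00159230 and TCONS_00159232 had 26.9 ± 9.79, 3.37 ± 11.2 and 1.73 ± 3.72 FPKM, with SDs above the mean in the last 2.

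Summed over its members, the gamma cluster had 103 ± 11.2 FPKM per mouse, the beta cluster 25.3 ± 3.10 and the alpha cluster 22.4 ± 3.19. The C-type transcripts made up 53.3% ± 3.93 of the alpha sum and 46.3% ± 6.18 of the gamma sum. Without the 3 constant-exon transcripts, which name no isoform, they made up 66.9% ± 4.58 of the gamma sum. These shares are of the members alone. No member stood for 6 of 14 alpha and 12 of 22 gamma RefSeq genes, none of them C-type. At gene level the loci had 143.1 ± 9.06 (gamma), 30.95 ± 3.61 (beta) and 23.15 ± 3.33 FPKM (alpha), more than the sums of the members. Mouse OB-547 had sums of 3.34 (alpha), 12.9 (beta) and 23.8 FPKM (gamma), against 25.6 to 28.2, 33.6 to 34.3 and 98.7 to 101.7 FPKM in its 2 strain mates. Mouse OB-422 had 4.55, 15.6 and 77.8 FPKM, against 17.8 to 22.2, 19.2 to 19.5 and 95.5 to 110.8 in its 2 strain mates. Both libraries were thus below their strain mates in all 3 clusters.

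Values of 3 unannotated members followed the 18 libraries that stood apart. Pcdha9, an alternate alpha isoform, had 0 to 0.000565 FPKM in these 18 and 0.268 to 3.06 FPKM in the others. TCONS_00159231 had 0 to 4.78 FPKM (median 0) in the 18 and 10.6 to 55.4 (median 28.5) in the others. TCONS_00159230 had 17.8 to 66.6 FPKM (median 45.9) in the 18 and 0 to 7.28 (median 0) in the others. The libraries did not overlap in any of these 3 transcripts, and the share of all transcripts without overlap was not computed. Values at 0 in the 18 were not particular to the members, as the 18 had been set apart by unannotated isoforms at 0. Outside the clusters, 829 of 50986 transcripts were at 0 in all 18 and in under 2% of the others, and all 829 were unannotated. TCONS_00159230 was high where TCONS_00159231 was low, and the sum of the 3 constant-exon transcripts overlapped, at 17.8 to 66.6 FPKM (median 48.6) in the 18 and 10.6 to 66.4 (median 30.4) in the others. The annotated Pcdhac2 transcript had a median of 9.20 FPKM in the 18 and 6.04 in the others, and the unannotated one 3.38 against 4.70. Because 6 of these 7 strains have all of their mice among the 18, strain and library cannot be told apart in them.

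**Figure D2:**
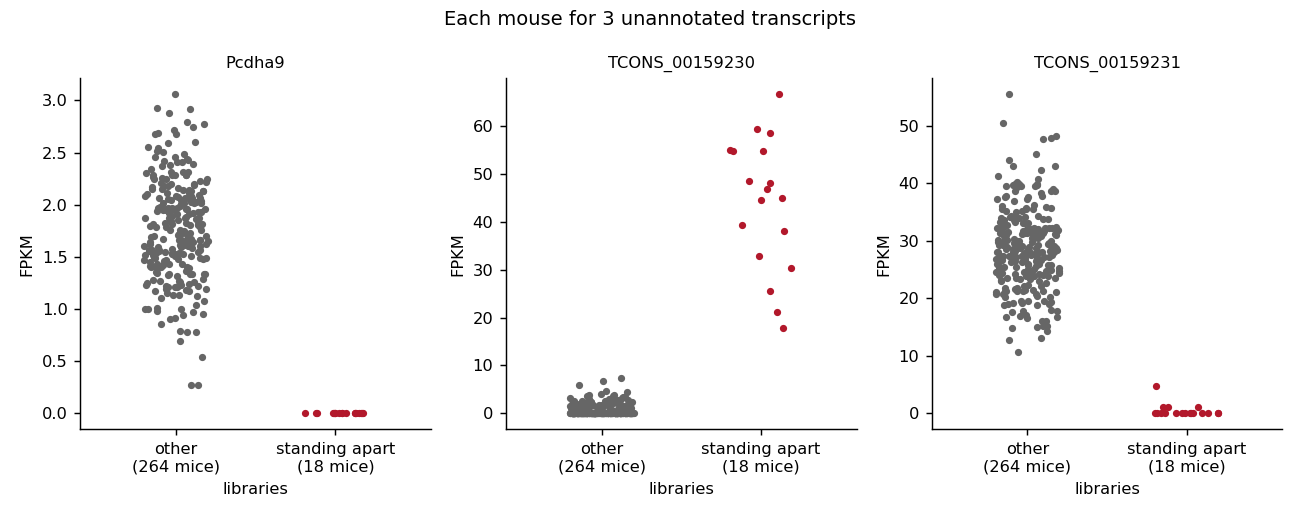
FPKM per library of Pcdha9, TCONS_00159230 and TCONS_00159231 in the 18 libraries that stood apart and in the others, 1 point per library, scattered sideways. The 18 lie at 0 to 0.000565, 17.8 to 66.6 and 0 to 4.78 FPKM, and overlap with the others in no panel.

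Strain differences were tested for each transcript with the moderated F test of limma on log2(FPKM + 1), adjusted over all 51024 transcripts by the Benjamini-Hochberg method. Of the 38 members, 34 differed between strains, where 46.8% of all transcripts did. Without the 18 libraries, 31 of 38 did, against 26.6% of all transcripts. The size of the strain effect was taken as the strain share of variance, computed as the intraclass correlation of strain mates. It had a median of 0.33 over the members and 0.12 over all transcripts, and of 0.29 and 0.075 without the 18 libraries. By cluster, 7 of 9 alpha, 14 of 16 beta and 13 of 13 gamma members passed. The 7 gamma A-type and B-type members had a median share of 0.59, and 7 of 7 passed. The 6 C-type transcripts had a median share of 0.17, and 4 of 6 passed.

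The largest shares belonged to neighbours in the gamma cluster, Pcdhga11 at 0.86 and Pcdhgb6 at 0.85. Their strain means ran from 1.22 (BXA-2/PgnJ) to 6.66 FPKM (BXD70) for Pcdhga11, an A-type isoform, and from 1.79 (BXD-12/TyJ) to 7.51 FPKM (BXD87) for Pcdhgb6, a B-type isoform. Of the strains at these ends, BXD-12/TyJ includes the low library OB-547, and BXD70 and BXD87 include libraries of the 18. Without the 18 libraries their shares were 0.85 and 0.84. Pcdhb3, a beta isoform, had a share of 0.75, with strain means from 0.560 (SM/J) to 3.23 FPKM (BXD79). The A-type isoforms Pcdhga3 (0.62, strain means 2.05 to 5.84 FPKM) and Pcdhga2 (0.59, 0.893 to 2.33 FPKM), the alternate isoform Pcdha12 (0.58, 1.28 to 4.77 FPKM) and Pcdhb2 (0.50, 0.210 to 1.80 FPKM) followed. These 7 shares were between 0.49 and 0.85 without the 18 libraries.

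The other members among the 10 with the largest shares were those that followed the 18 libraries. The share of TCONS_00159231 was 0.85 with all libraries and 0.22 without the 18, that of TCONS_00159230 was 0.71 and 0.13, and that of Pcdha9 was 0.68 and 0.22. Without the 18 libraries, Pcdha9 (adjusted p = 0.00566) and TCONS_00159231 (adjusted p = 0.00451) still differed between strains, but TCONS_00159230 did not pass (adjusted p = 0.0722). Pcdha4 (adjusted p = 0.00399 with and 0.0708 without the 18) and Pcdhac1 (0.0296 and 0.0501) also lost their call without the 18. Without mouse OB-547 alone both passed, Pcdha4 with a share of 0.39 in place of 0.20 (adjusted p = 2.84e-08) and Pcdhac1 with an adjusted p of 0.0324.

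The smallest shares belonged to the annotated Pcdhac2 transcript (0.074, adjusted p = 0.186), Pcdhb16 (0.10, adjusted p = 0.124) and Pcdhb14 (0.11, adjusted p = 0.0840). The unannotated Pcdhac2 transcript had an adjusted p of 0.0642. Strain means of annotated Pcdhac2 ran from 4.02 (CXB-12/HiAJ) to 10.2 FPKM (BXD75), with a spread within strains of 1.5 FPKM (SD). All mice of BXD75 are among the 18 libraries that stood apart. Without these libraries the share of annotated Pcdhac2 was -0.050 (adjusted p = 0.829). The abundant gamma C-type isoforms had shares of 0.18 for Pcdhgc3, 0.21 for Pcdhgc4 and 0.18 for Pcdhgc5. Without mouse OB-547, which held the lowest value of Pcdhgc3, the share of Pcdhgc3 was 0.38 and that of Pcdhgc4 0.33. The difference in share between C-type isoforms and the A-type and B-type isoforms was not tested.

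**Figure D3:**
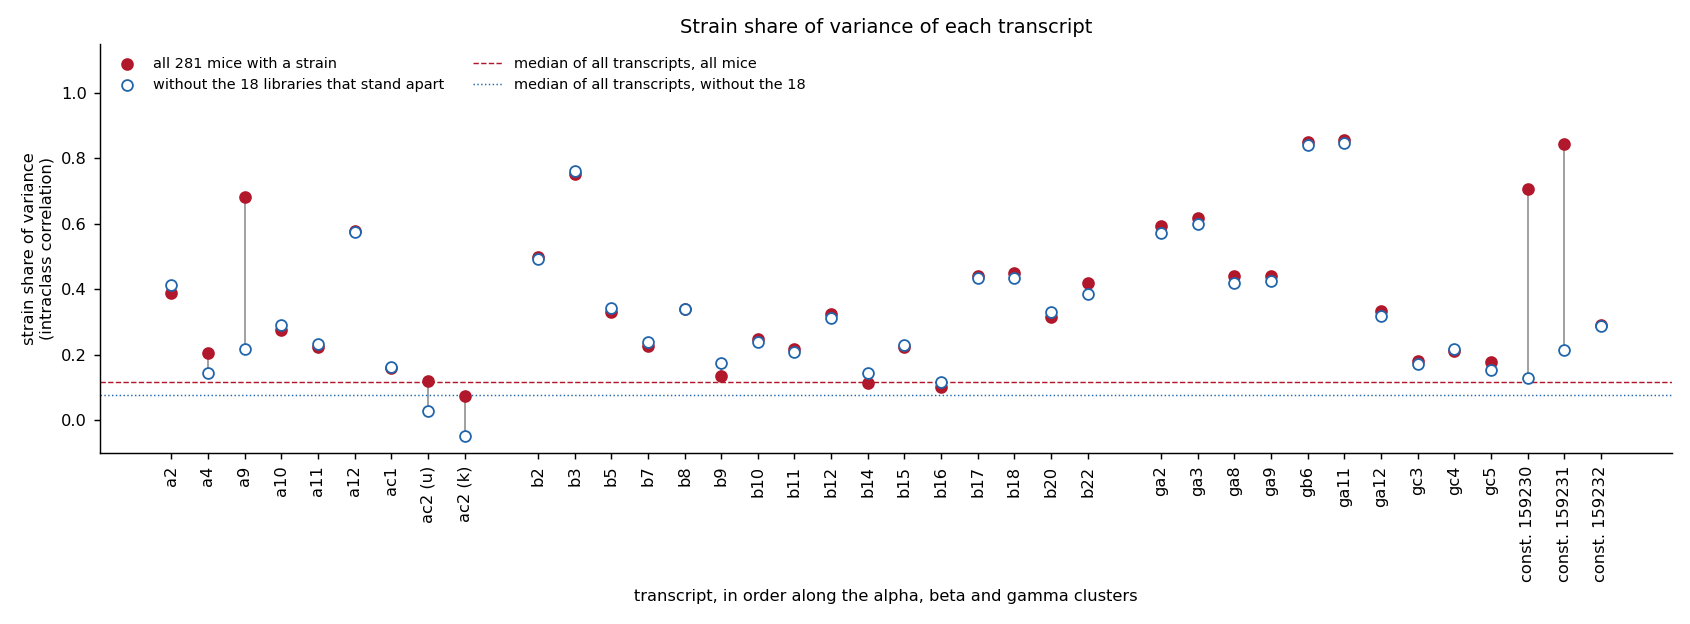
Strain share of variance of each member in the order of the clusters, with all mice of known strain and without the 18 libraries that stood apart. The shares of Pcdhga11 and Pcdhgb6 lie near 0.85 in both, while those of Pcdha9, TCONS_00159230 and TCONS_00159231 drop to 0.22, 0.13 and 0.22.

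Strain differences were then tested within each strain set. Among the BXD strains 26 members differed, where 39.5% of all transcripts did (22 members and 14.8% without the 18 libraries). Among the AXB/BXA strains 11 members differed (6.83% of all transcripts), and 20 (8.61%) without mouse OB-547, which is not of this set but enters the spread that all strains share in the fit. Differences were called among the CXB strains for 8 members (4.36%) and among the classical inbred strains for 20 (14.3%). Without the 18 libraries the counts for these 3 sets were 12 (6.75%), 7 (4.27%) and 19 (14.1%). Among the BXH strains 10 differed (15.7% of all transcripts), but 3 (2.19%) without the 18 libraries, which include both mice of BXHA1. Pcdhb3 differed within 5 of 5 sets, with or without these libraries. Pcdhgb6, Pcdhga11, Pcdha12 and Pcdhb2 differed within 4 sets, and none of these 4 passed within the BXH set. Pcdhb17, Pcdhga2 and Pcdhga3 also differed within 4 sets, BXH included (adjusted p = 0.0137, 0.00110 and 0.0326), and within 2, 3 and 3 sets without the 18 libraries. Pcdhac1, the unannotated Pcdhac2 transcript, Pcdhb11, Pcdhb14 and Pcdhb16 passed within 0 sets.

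Within the sets, the strain means of Pcdhgb6 and Pcdhga11 fell into a low and a high range. Among the 43 BXD strains, Pcdhgb6 was at most 3.57 FPKM in 26 strains and at least 5.32 FPKM in 17, with no strain between. For Pcdhga11 the same 26 strains were at most 2.63 FPKM and the same 17 at least 4.13 FPKM. Single mice overlapped slightly, the highest mouse of the low strains having 4.43 FPKM of Pcdhgb6 and the lowest mouse of the high strains 3.42 FPKM. Every BXD strain was thus low in both isoforms or high in both.

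Among the 7 CXB strains, Pcdhgb6 was at most 2.26 FPKM in 3 strains and at least 3.93 in 4, and Pcdhga11 was at most 1.59 FPKM in the same 3 and at least 3.37 in the same 4. Among the 18 AXB/BXA strains the widest gap lay between 3.21 and 4.49 FPKM for Pcdhgb6 and between 2.14 and 4.51 FPKM for Pcdhga11. There, 11 strains were low in both, 6 were high in both, and AXB-12/PgnJ, with 1 mouse, was high in Pcdhgb6 and low in Pcdhga11. All 6 BXH strains had 5.03 to 6.73 FPKM of Pcdhgb6, which is above the gap of the AXB/BXA strains but starts within that of the BXD strains, and 3.37 to 6.04 FPKM of Pcdhga11. The lowest of them in Pcdhga11, BXH-4/TyJ, lay within the gaps of the BXD and AXB/BXA strains. The gaps were found in these same values and have no test of their own.

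Of the 25 classical inbred strains, 8 were low in both isoforms, namely I/LnJ, BALB/cJ, SEA/GnJ, A/J, CBA/J, 129X1/SvJ, RIIIS/J and DBA/2J, at 2.01 to 2.67 FPKM of Pcdhgb6 and 1.30 to 1.83 FPKM of Pcdhga11. KK/HlJ lay between, at 3.53 and 2.44 FPKM. The other 16, C57BL/6J among them, had 4.24 to 7.08 FPKM of Pcdhgb6 and 3.47 to 6.06 FPKM of Pcdhga11. C3H/HeJ, the other founder of the BXH set, was among these 16.

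**Figure D4:**
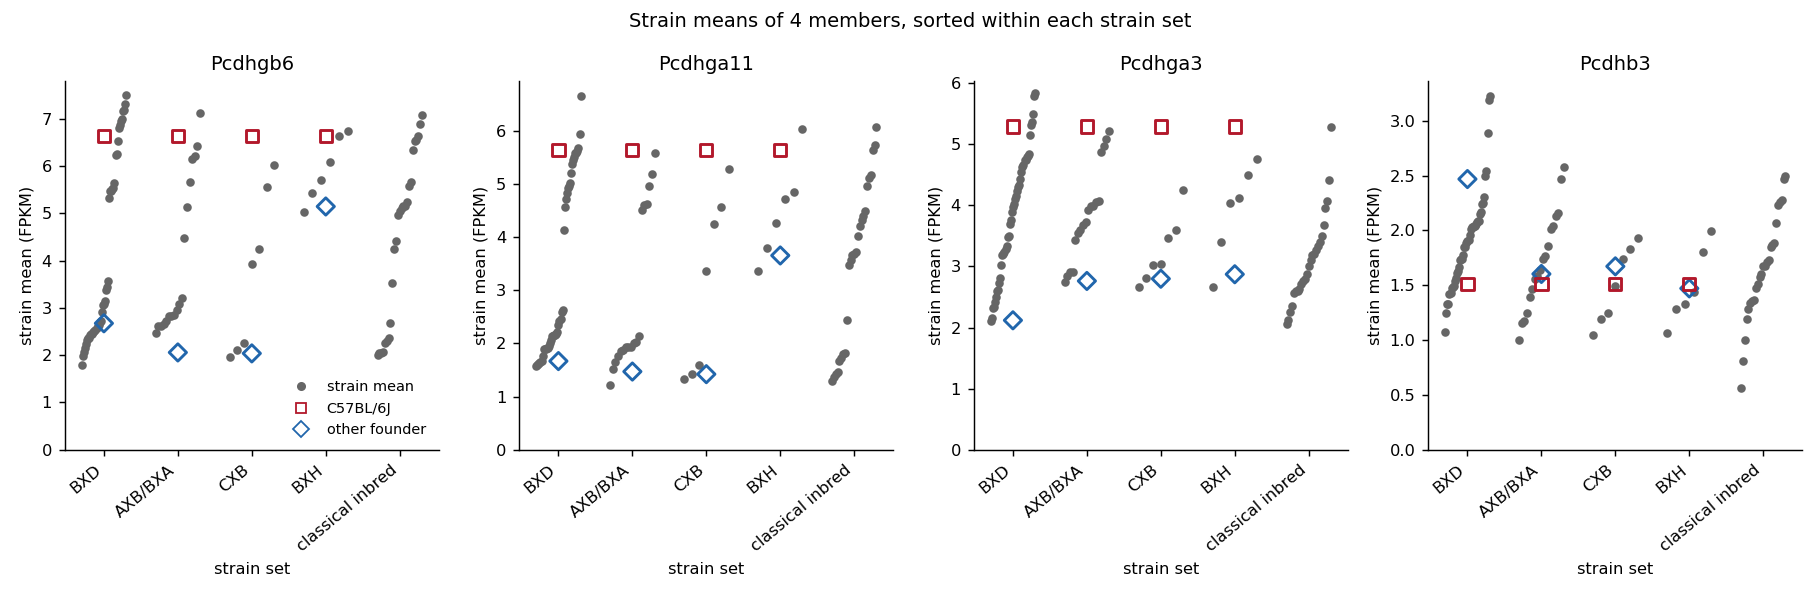
Strain means in FPKM of Pcdhgb6, Pcdhga11, Pcdhga3 and Pcdhb3 in the 5 strain sets, 1 grey point per strain, with C57BL/6J (square) and the other founder (diamond) marked. Pcdhgb6 and Pcdhga11 split into a low and a high range in the BXD, AXB/BXA, CXB and classical inbred sets, with no BXD strain between 3.57 and 5.32 FPKM of Pcdhgb6, and all 6 BXH strains have at least 5.03 FPKM of Pcdhgb6 and 3.37 FPKM of Pcdhga11.

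Each founder strain was compared with C57BL/6J (3 mice each). The 4 comparisons share the C57BL/6J mice and are not independent of each other. Reads of all strains were aligned to the mm10 reference. Sequence differences between a strain and that reference can lower its FPKM values, which was not tested for any of these differences. The values of Pcdhgb6 in the 3 mice were 6.75, 6.46 and 6.68 FPKM in C57BL/6J and 3.05, 3.05 and 1.91 in DBA/2J. They were 2.34, 1.87 and 1.96 FPKM in A/J and 1.84, 2.62 and 1.66 in BALB/cJ. In C3H/HeJ they were 5.39, 4.75 and 5.29 FPKM. Every mouse of the 4 other founders was thus below every C57BL/6J mouse, and the C3H/HeJ mice were nearest to them.

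On the log2(FPKM + 1) scale, Pcdhgb6 was lower than in C57BL/6J by -1.07 ± 0.17 (SE) in DBA/2J (adjusted p = 9.62e-07), by -1.32 ± 0.17 in A/J (adjusted p = 5.58e-10) and by -1.34 ± 0.17 in BALB/cJ (adjusted p = 3.27e-10). In C3H/HeJ the difference of -0.31 ± 0.17 did not pass (adjusted p = 0.502). As ratios of mean FPKM, C57BL/6J had 2.48 times the level of DBA/2J, 3.22 times that of A/J and 3.26 times that of BALB/cJ.

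Pcdhga11 had 6.25, 5.34 and 5.34 FPKM in C57BL/6J. It had 1.77, 1.54 and 1.69 FPKM in DBA/2J, 1.40, 1.39 and 1.63 in A/J, and 1.62, 1.54 and 1.11 in BALB/cJ. In C3H/HeJ it had 4.53, 3.42 and 3.01 FPKM. The strains did not overlap with C57BL/6J in this isoform either, and C3H/HeJ again lay between. The log2 difference was -1.31 ± 0.18 in DBA/2J (adjusted p = 2.77e-09), -1.43 ± 0.18 in A/J (adjusted p = 1.04e-10) and -1.46 ± 0.18 in BALB/cJ (adjusted p = 3.74e-11). In C3H/HeJ it was -0.52 ± 0.18, which did not pass (adjusted p = 0.133).

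The neighbouring A-type isoforms Pcdhga3 and Pcdhga2 were lower in all 4 founders than in C57BL/6J. Pcdhga3 had 5.37, 4.90 and 5.59 FPKM in C57BL/6J, and 1.56 to 3.91 FPKM in the 12 mice of the other founders. Its log2 difference was -1.03 ± 0.18 in DBA/2J (adjusted p = 6.39e-06), -0.74 ± 0.18 in A/J (adjusted p = 0.00435), -0.74 ± 0.18 in BALB/cJ (adjusted p = 0.00544) and -0.72 ± 0.18 in C3H/HeJ (adjusted p = 0.00690). Pcdhga2 had 2.14, 1.97 and 1.80 FPKM in C57BL/6J, and 0.856 to 1.25 FPKM in the 12 other mice. In both isoforms the C57BL/6J mice were above every other founder mouse. The log2 difference of Pcdhga2 was -0.54 ± 0.12 in DBA/2J (adjusted p = 0.00120), -0.41 ± 0.12 in A/J (adjusted p = 0.0457), -0.49 ± 0.12 in BALB/cJ (adjusted p = 0.00597) and -0.58 ± 0.12 in C3H/HeJ (adjusted p = 0.000327).

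In DBA/2J, Pcdhb3 was higher, with 2.65, 2.44 and 2.31 FPKM against 1.73, 1.19 and 1.62 in C57BL/6J, a log2 difference of 0.47 ± 0.12 (adjusted p = 0.00822). In all, 5 members differed between DBA/2J and C57BL/6J, where 1.95% of all transcripts did. Of these, 1 was higher and 4 were lower, against 1% and 0.947% of all transcripts. For A/J 4 members differed (1.84% of all transcripts), 4 lower (1.06%) and 0 higher (0.782%). For BALB/cJ 4 differed (1.66%), 4 lower (0.853%) and 0 higher (0.804%). For C3H/HeJ 2 differed (1.81%), 2 lower (0.878%) and 0 higher (0.935%). The median log2 difference over the 38 members was between -0.12 and 0.060 in the 4 comparisons.

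The calls of Pcdhgb6 and Pcdhga11 against DBA/2J, A/J and BALB/cJ held when any 1 mouse of either strain was left out. Others rested on single mice. Pcdhb3 in DBA/2J lost its call without C57BL/6J mouse 2 (adjusted p = 0.181) or DBA/2J mouse 1 (adjusted p = 0.0736). Pcdhga2 in A/J lost it without any 1 of the 6 mice (adjusted p from 0.0550 to 0.204), and without the 18 libraries (adjusted p = 0.0504). Pcdhga3 lost it in A/J without A/J mouse 3 (0.0564), in BALB/cJ without BALB/cJ mouse 3 (0.123), and in C3H/HeJ without C3H/HeJ mouse 2 (0.105) or 3 (0.0901). Pcdhga2 in BALB/cJ lost it without C57BL/6J mouse 1 (0.0653) or BALB/cJ mouse 1 (0.0503).

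KK/HlJ stood out in several members of the beta cluster, a pattern chosen after its values were seen and given without a test. Its 3 mice had 0, 0.159 and 0 FPKM of Pcdhb9, and the lowest mean among the 98 other strains was 0.733 FPKM. They had 0.0304, 0.322 and 0.357 FPKM of Pcdhb8, a strain mean of 0.236 where the lowest other mean was 0.524. Of Pcdhb18 they had 2.81, 3.05 and 2.78 FPKM, and the highest mean of another strain was 1.91. KK/HlJ was thus the lowest strain for the first 2 isoforms and the highest for the third, and 0 of the mice of other strains exceeded its lowest mouse in Pcdhb18. It also had the lowest strain mean of Pcdhb10 (0.843 FPKM), at 0.655 to 1.06 FPKM, within the range of other mice. It had the highest strain mean of Pcdhb5 (1.26 FPKM), at 0.645 to 1.94 FPKM.

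Pcdhb9 varied between mice of the same strain as well. Its share was 0.13 (adjusted p = 0.0351), with an SD within strains of 1.16 FPKM. Of the mice of known strain, 204 had more than 2 FPKM and 16 had less than 0.1 FPKM, and these 16 came from 15 strains. In 25 strains 1 mouse had under 1 FPKM and another above 2 FPKM. Low values of this isoform were thus spread over many strains as single mice, and in KK/HlJ all 3 mice were low.

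The 3 cluster sums were compared between strains with a permutation test of the F ratio (100000 resamples, adjusted over the 3 sums). The beta sum differed (share 0.36, permutation adjusted p = 3e-05) and the gamma sum did (share 0.26, permutation adjusted p = 0.0108). The alpha sum did not pass (share 0.085, permutation adjusted p = 0.0920), but without mouse OB-547 it did (share 0.24, permutation adjusted p = 0.0086). Without that mouse the shares of the beta and gamma sums were 0.53 and 0.46. Without the 18 libraries the shares were 0.078 for alpha (permutation adjusted p = 0.112), 0.36 for beta and 0.17 for gamma (permutation adjusted p = 0.0381), and without the constant-exon transcripts the gamma share was 0.18 (permutation adjusted p = 0.0317). The gamma share was 0.41 for sums in FPKM rather than log2 and 0.64 with gene-level FPKM of the loci (permutation adjusted p = 1.5e-05 for both).

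Across the 99 strain means, the alpha and beta sums were correlated, with Pearson's r = 0.50 (permutation p adjusted over 3 pairs = 3e-05) and Spearman's rho = 0.39 (adjusted p = 0.00021), and r = 0.45 without the 2 strains farthest from the median. The beta and gamma sums had r = 0.25 (adjusted permutation p = 0.0117), rho = 0.31 (adjusted p = 0.00281), and r = 0.24 without the 2 farthest strains. They did not pass without replicate 2 of each strain (r = 0.16, adjusted permutation p = 0.123, rho adjusted p = 0.317), and with gene-level FPKM they had r = 0.47 and rho = 0.50. The alpha and gamma sums had r = 0.30 (adjusted permutation p = 0.00822) and rho = 0.11 (adjusted p = 0.279). For the sums over all members this last relation rested on CXB-3/ByJ and BXD-12/TyJ, which include the 2 low libraries, since r was 0.074 without them. With annotated transcripts alone r was 0.50 and rho 0.34 (adjusted permutation p = 0.00096), and r was 0.33 without these 2 strains. With gene-level FPKM r was 0.23 and rho 0.23 (adjusted permutation p = 0.0223), and r was 0.22 without them. Without the constant-exon transcripts in the gamma sum, the alpha and gamma sums had r = 0.61 and rho = 0.42, and r = 0.44 without the 2 farthest strains.

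Within the strain sets the alpha and beta sums had r = 0.24 among BXD, 0.57 among AXB/BXA, 0.93 among CXB, -0.04 among BXH and 0.58 among classical inbred strains. The CXB value rested on CXB-3/ByJ and CXB-12/HiAJ, as r was 0.043 without them. The alpha and gamma sums had r = 0.54 within BXD, 0.10 without the 2 strains farthest from the median, and between 0.025 and 0.48 within the other sets. The beta and gamma sums had r = 0.36 within BXD and between -0.02 and 0.58 within the others. The relations of the sums thus differed in size from set to set, and those differences were not tested.

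Members were also compared pair by pair over the 99 strain means, as a description with no test. The points of all pairs share their libraries, and within the alpha and gamma clusters the members share constant exons. The median r was 0.23 over 36 pairs within alpha, 0.16 over 120 within beta, 0.092 over 78 within gamma and 0.10 over 469 pairs of different clusters. C-type transcripts had a median r of 0.49 with each other over 15 pairs (14 positive), and of 0.14 with members that are not C-type. Without the 18 libraries the median of the C-type pairs was 0.57 and all 15 were positive. Pairs whose first exons lay at most 10 kb apart had a median of 0.29 (14 pairs), those at 10 to 100 kb 0.18 (120) and those farther apart 0.13 (461).

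The pair with the highest r was Pcdhgb6 and Pcdhga11 (0.92, and 0.92 without the 18 libraries), whose first exons lie 13.7 kb apart. Pcdhga2 and Pcdhga3 had r = 0.85 at 8.31 kb. Pcdhgc3 and Pcdhgc4 had r = 0.75 at 8.67 kb. Pcdhb2 and Pcdhb3 had r = 0.72 at 5.96 kb. These pairs were picked for their high r and are near neighbours, but Pcdhb3 and Pcdhb5, 19.6 kb apart, had r = -0.52. The highest r between members of different clusters was 0.86 with all libraries and 0.63 without the 18. An r of at least 0.5 was reached by 4 of 14 pairs at most 10 kb apart. It was also reached by 11 of 461 pairs over 100 kb apart.

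Deviations of single mice from their strain mean, computed without mouse OB-547, gave other values for some of these pairs. Pcdhgc3 and Pcdhgc4 had r = 0.76 in the deviations, close to the value over strains. Pcdhgb6 and Pcdhga11 had 0.35, and Pcdhb2 and Pcdhb3 had 0.0016. Pcdha12 and Pcdhgb6, which lie in different clusters 721.9 kb apart, had r = -0.47 over strains and 0.29 in the deviations. In the deviations r was thus smaller and of the same sign for Pcdhgb6 and Pcdhga11, near 0 for Pcdhb2 and Pcdhb3, and of the opposite sign for Pcdha12 and Pcdhgb6. These differences were not tested. The pair TCONS_00159230 and TCONS_00159231 had r = -0.89 with all libraries and 0.03 without the 18.

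**Figure D5:**
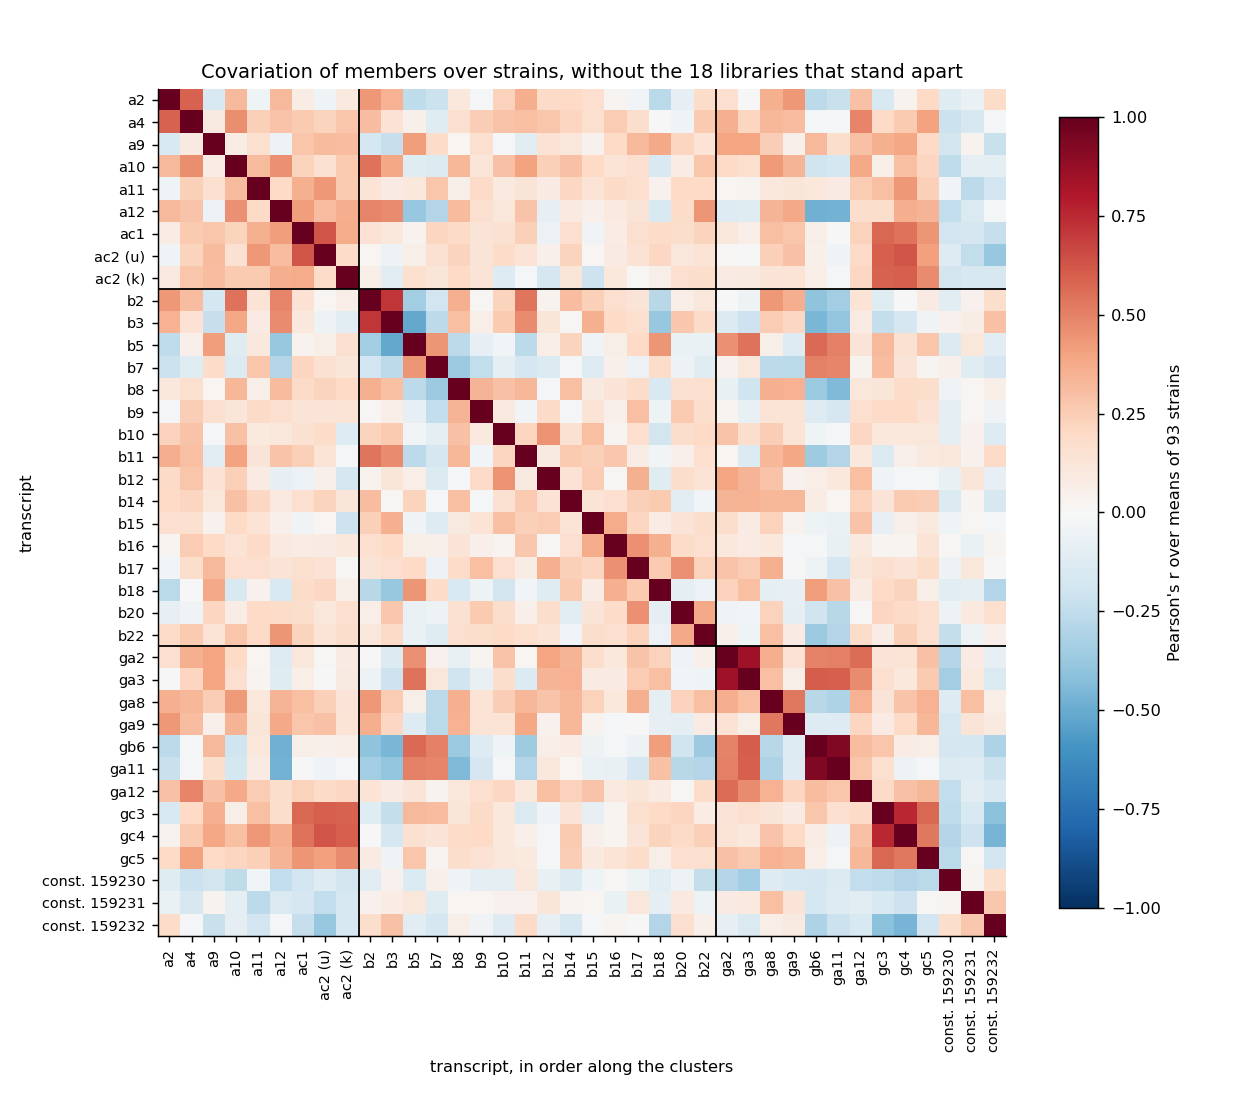
Pearson's r over the means of 93 strains for every pair of members, ordered along the clusters, without the 18 libraries that stood apart. The blocks of Pcdhgb6 with Pcdhga11 (0.92), Pcdhga2 with Pcdhga3 (0.85) and Pcdhgc3 with Pcdhgc4 (0.76) are the highest values.

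The cluster sums were set beside the mean level of 9 marker lists over strain means (27 pairs, permutation p adjusted over all of them). The alpha sum rose with the neuronal markers (r = 0.71, rho = 0.64, adjusted permutation p = 0.00027 for both, r = 0.61 without the 2 farthest strains). It fell with the hypothalamic neuropeptide genes (r = -0.35, adjusted permutation p = 0.00783, rho = -0.23, adjusted p = 0.114), with r = -0.25 (adjusted p = 0.0766) without mouse OB-547. The beta sum had r = 0.32 with the neuronal markers (adjusted permutation p = 0.0125, rho = 0.25, adjusted p = 0.0861). The gamma sum had r = 0.29 with the astrocyte markers (adjusted permutation p = 0.0251, rho = 0.20, adjusted p = 0.129), and 0.20 (adjusted p = 0.189) without mouse OB-547. By Pearson's r the other 23 pairs did not pass, and by rho the alpha sum with the thalamic markers (rho = 0.35, adjusted permutation p = 0.00621) and the beta sum with the oligodendrocyte markers (rho = 0.29, adjusted p = 0.0308) did. The part of the make-up of the dissected tissue in the strain differences was not tested.

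The transcripts whose strain means were most like each cluster sum, by Pearson's r over 99 strains among 50986 transcripts outside the clusters, are named as a description. For the alpha sum they were Ncdn (0.86), which encodes the neuronal protein neurochondrin, Arhgap32 (0.85) and Dock3 (0.85), regulators of small GTPases, Wbscr17 (0.85) and Irs2 (0.84), an adaptor of the insulin receptor. For the beta sum they were Mfn2 (0.58), a mitofusin, Gab1 (0.54), Golga3 (0.53), the netrin receptor gene Unc5b (0.53) and Ick (0.52). For the gamma sum they were Btrc (0.78), a ubiquitin ligase subunit, the RNA editing enzyme gene Adar (0.72), Psap (0.71), Phyhip (0.71) and Wdr82 (0.70). The values for beta were lower than those for alpha and gamma. When the 18 libraries were left out, the 5 most like transcripts shared 4 with these for alpha and 3 for beta, but 1 for gamma, where Btrc (0.77) was followed by Rab14, Hnrnpk, Ppp2r2a and Eef2.

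Other genes of the pathway were taken at gene level, where 75.4% of 14079 genes differed between strains and the median share was 0.22. Of the non-clustered protocadherins, related adhesion molecules outside the arrays, 10 of 11 measured genes differed, with a median share of 0.26 and the largest for Pcdh18 (0.45). Of the chromatin regulators of the clusters, among them CTCF and cohesin, which fold the promoters to their enhancers, 11 of 18 differed, with a median share of 0.16 and the largest for the cohesin subunit gene Smc3 (0.32). Of the intracellular partners, kinases and the WAVE actin complex, 13 of 18 differed, with a median of 0.23 and the largest for the WAVE subunit gene Nckap1 (0.62). Of the genes next to the clusters, 9 of 12 measured loci differed, with a median of 0.18 and the largest for Hars (0.65), which encodes a tRNA synthetase. Pcdh18, Smc3, Nckap1 and Hars each had a smaller share than Pcdhga11 and Pcdhgb6 had at transcript level.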

How the data were processed

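RNA of the hypothalamus was sequenced by the authors as unstranded paired-end libraries, 1 per mouse. Reads of all strains were aligned by the authors to the mm10 reference with STAR 2.3.1, allowing 3 mismatches and up to 10 mappings per read. Transcripts were assembled with Cufflinks 2.2.0 per strain and merged with GENCODE M2. The deposited values are FPKM, which the authors estimated and scaled between mice with Cuffnorm 2.2.1, for features they had detected in 100 or more mice and above 1 FPKM in 50 or more, which holds in the values. Sequence differences between a strain and the reference can lower an FPKM value, which was not tested. The files give no counts, so depth per library is unknown from them and no counting interval was computed. SDs over all mice hold the differences between strains as well as those within them. The p-values of the strain tests set differences between strains against the spread within strains. Those of the correlations come from permuting strain means, so the spread within strains does not enter them. They treat strains as independent, although strains of a set share founders. Kinship between strains was not modelled.

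FPKM were analysed as log2(FPKM + 1) with limma 3.58.1 in R 4.3.3, with all strains and transcripts in 1 fit, no covariate, and Benjamini-Hochberg adjustment over 51024 transcripts at 0.05. Sums and correlations were tested with 2-sided permutation tests (the F ratio 1-sided) with 100000 resamples in Python 3.11.15 (numpy 2.4.6, pandas 2.3.3, scipy 1.17.1), exact for fewer than 10 strains. Both tests were checked on simulated data. Figures were drawn with matplotlib 3.10.9. Alpha and gamma isoforms were named by the RefSeq gene whose start lay within their first exon or up to 500 bases before it. Beta members kept the gene name of the assembly.

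The members, the lists and the tests were chosen with earlier results of these data known. The text names every C-type member, the 3 highest and 2 lowest of each cluster by mean FPKM, the 10 largest and 3 smallest strain shares, the 3 largest differences called in each founder comparison, the 5 transcripts most like each sum, and the member of each list with the largest share. All further genes in the text were picked after their values were seen. Alternatives were other pseudocounts, a filter at a mean of 1 FPKM, quantile normalization, read covariates, the Kruskal-Wallis test, annotated transcripts alone, values relative to the cluster mean, gene-level values, placements of mouse OB-627, leaving out mice in turn, and leaving out mouse OB-547. The removal of the 18 libraries, also together with OB-547 and OB-422, and of the constant-exon transcripts from the gamma sum was added after the data were seen. Genotypes were not analysed here.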

Additional observations from a re-analysis of the deposited data

How the results depend on the processing

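No paired analysis was possible because each mouse has a number of its own, and the replicate numbers within strains are names in order of accession that pair no mice.

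Of the members, 34 differed between strains, 29 with a pseudocount of 0.01, 33 by the Kruskal-Wallis test, 36 after quantile normalization and 23 to 25 when 1 mouse of each strain was left out. The median strain share of variance of members was 0.33, with 0.266 at a pseudocount of 0.01, 0.421 after quantile normalization, 0.381 without OB-547, 0.381 relative to the cluster mean and 0.304 to 0.384 without a replicate. Without a replicate, the counts of members called within sets were 15 to 20 (BXD), 4 to 8 (AXB/BXA), 3 to 9 (CXB), 4 to 8 (BXH) and 11 to 12 (classical inbred). These fits hold fewer mice. For AXB/BXA 19 members were called after quantile normalization and 20 without OB-547, and for BXH 21 after quantile normalization, 5 among annotated transcripts alone and 3 without the 18 libraries. Without single mice, 4 to 5 members were called for DBA/2J, 2 to 3 for A/J, 3 to 4 for BALB/cJ and 1 to 2 for C3H/HeJ, and 1 for C3H/HeJ among annotated transcripts alone. The cause was not tested in these cases.

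The alpha sum passed the strain test as FPKM (share 0.207), without OB-547 (0.238) and with annotated transcripts alone (0.170). The gamma sum had shares of 0.212 to 0.429 without a replicate and did not pass without replicate 1. The r of the alpha and beta sums was 0.469 to 0.527 without a replicate. It did not pass within BXD (0.235) or CXB (0.931) and turned to -0.0355 within BXH. For the alpha and gamma sums r was 0.156 to 0.448 without a replicate and did not pass as FPKM (0.131), without OB-547 (0.119), or within AXB/BXA (0.0586), CXB (0.479), BXH (0.384) and classical inbred strains (0.0255). For the beta and gamma sums r was 0.164 to 0.350 without a replicate, did not pass without replicate 2, did not pass within AXB/BXA (0.181), CXB (0.575) and BXH (0.442), and turned to -0.0221 within classical inbred strains. The few strains of a set limit these tests.

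The median r of members within alpha was 0.260 in deviations of mice, 0.209 as FPKM, 0.304 for annotated transcripts and 0.271 without the 18 libraries. Within beta it was 0.102 in deviations, within gamma 0.383 in deviations and 0.280 for annotated transcripts, and between clusters 0.176 and 0.144. Without OB-547 the alpha sum had r = -0.248 with hypothalamic, -0.0757 with astrocyte (reversed in sign) and 0.291 with thalamic markers (now past the threshold). The beta sum then had -0.0181 with choroid plexus markers and the gamma sum 0.0590 with oligodendrocyte markers, both reversed, and 0.204 with astrocyte markers. The gamma sum with oligodendrocyte markers was 0.0063 without the 18 libraries. Of the values of single members under all alternatives, 680 kept their call, 63 lost it and 5 gained it. No founder difference that was called changed sign. The sign of the strain shares was not part of this count.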

Other observations

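Mouse OB-627, whose title and strain label name different strains, was in no comparison between strains. It had 2.63 FPKM of Pcdhgb6. The 2 other mice of AXB-6/PgnJ had 6.02 and 8.20 FPKM, and those of AXB-8/PgnJ had 2.61 and 2.62. For Pcdhga11 it had 1.81 FPKM, against 5.02 and 6.15 in AXB-6/PgnJ and 1.25 and 2.06 in AXB-8/PgnJ. For Pcdhga3 it had 2.96 FPKM, against 4.57 and 5.38 in AXB-6/PgnJ and 2.81 and 2.89 in AXB-8/PgnJ. In these 3 isoforms it lay near the AXB-8/PgnJ mice and below both AXB-6/PgnJ mice. In others it lay nearer to AXB-6/PgnJ. It had 0.468 FPKM of Pcdhb2, against means of 0.562 in the 2 AXB-6/PgnJ mice and 1.13 in the 2 AXB-8/PgnJ mice. It had 1.46 FPKM of Pcdhac1, against 1.55 in both AXB-6/PgnJ mice and 0.645 and 0.760 in AXB-8/PgnJ. It had 3.63 FPKM of Pcdha12, above the mice of both strains (1.80 to 2.43 FPKM).

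Outside the clusters, the transcripts whose strain means were most like Pcdhgb6 lay on the same chromosome, with r = -0.65 for 1700086O06Rik, 0.62 for a transcript of Brd8, which encodes a bromodomain protein, and -0.59 for Apbb3, an adaptor that binds the amyloid precursor protein. Another transcript of Brd8, with a mean of 5.73 FPKM against 2.54 in the first, had r = -0.55. Those most like Pcdhga3 lay on chromosome 1, with r = 0.61 for Copa, a coatomer subunit gene, 0.60 for the adhesion molecule gene Cadm3 and 0.58 for Ncstn, a subunit gene of gamma secretase. These members were chosen after their values were seen, and the correlations over 99 strain means are a description with no test.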
